A study of Rattus norvegicus with 48 samples.

Results

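The erythrocyte miRNAs were rno-miR-451-5p, rno-miR-144-3p, rno-miR-144-5p and rno-miR-486, taken as the rows with the first 3 IDs plus every row whose ID starts with rno-miR-486, of which there was 1. They were 4 of the 763 mature miRNAs listed in each library. NGS of small RNA had been performed on 32 sera and 16 ulna bones of wild-type (WT) and Zucker Diabetic Fatty (ZDF) rats, collected 12 weeks after the start of treatment. WT rats were Zucker lean rats, and ZDF rats carry a homozygous mutation of the leptin receptor and are a model of type 2 diabetes.

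In serum, 5 WT and 5 ZDF rats had received placebo, 5 WT and 5 ZDF rats parathyroid hormone (PTH), 4 WT and 4 ZDF rats anti-sclerostin, and 4 ZDF rats insulin. In bone, placebo and PTH were each represented by 4 WT and 4 ZDF rats. All rats were male, 11 weeks old at the start, had a surgical femur defect and received a chow rich in fat and carbohydrate. The rats came from earlier animal experiments. Those of PTH and of insulin each included placebo rats, but the labels do not say which. The anti-sclerostin rats were described apart from the placebo rats, so for anti-sclerostin the treatment and its experiment cannot be told apart. The PTH, insulin and anti-sclerostin rats were each described in a different earlier study. Where these treatments are compared with each other, treatment and experiment likewise cannot be told apart. The bones came from the rats of the sera except for part of the ZDF PTH bones, but no label links a bone to its serum. No WT rats received insulin, and no bone was treated with anti-sclerostin or insulin.

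miR-144 and miR-451 are cut from 1 primary transcript that the erythroid factor GATA1 switches on, and miR-451 is among the most abundant miRNAs of red blood cells. The miR-451 hairpin is too short for Dicer, and its 5p strand is instead matured by Argonaute 2. miR-486 lies in an intron of the ankyrin gene Ank1 and is known from both red cells and striated muscle. Because lysed red cells release these miRNAs, miR-451 against miR-23a-3p, which red cells hold in small amounts, is a usual measure of hemolysis in serum.

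The sequences are shown because 3 of the 4 members share 1 locus but not a seed, the bases 2 to 8 that pair with targets, and those bases are in capitals. They are from RefSeq, build GRCr8, with 3 of 4 members matched, and all lie on the plus strand.
rno-miR-451-5p (chr10:63459585-63459606): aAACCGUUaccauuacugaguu
rno-miR-144-3p (chr10:63459446-63459465): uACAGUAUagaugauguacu
rno-miR-144-5p (chr10:63459409-63459431): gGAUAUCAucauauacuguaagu
No other rat mature miRNA of the RefSeq table had any of these 3 seeds. The hairpins follow, with the strands of the members in capitals, to show where each of them is cut. The other strand of the miR-451 hairpin, miR-451-3p (chr10:63459612-63459634), is not a member and is left in lower case.
Mir144 (chr10:63459397-63459479): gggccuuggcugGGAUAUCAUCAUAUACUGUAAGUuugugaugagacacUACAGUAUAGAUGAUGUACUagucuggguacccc
Mir451a (chr10:63459569-63459640): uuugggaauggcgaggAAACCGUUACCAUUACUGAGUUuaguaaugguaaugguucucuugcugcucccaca
The hairpins were 89 bases apart. miR-144 had a strand on each side of its hairpin, while miR-451-5p filled positions 17 to 38 of a hairpin of 72 bases. The opposite strand, miR-451-3p, was nearly absent, with 29 reads in all 32 sera against 136383 of miR-451-5p, and 12 against 28763 in the bones.

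The libraries held 28015 to 205664 miRNA reads in serum and 41627 to 1398702 in bone, and counting error was therefore largest for miR-144-5p, with 12 to 118 reads in a serum and 10 to 622 in a bone. Levels are given as TMM CPM, the reads of a miRNA relative to all miRNA reads of its library after trimmed mean scaling, set within each tissue. In the sera, the summed levels of the marker lists ranged from 16.9% to 30.6% of miRNA reads for 8 other red cell miRNAs, from 1.02% to 7.52% for 5 leukocyte miRNAs and from 0.0139% to 4.72% for 6 striated muscle miRNAs. In the bones, they ranged from 1.26% to 4.75%, from 0.336% to 0.972% and from 5.35% to 34.1%, and 3 osteoblast and stroma miRNAs made up 1.99% to 6.10%. No list member was at 0 in all libraries of a tissue, but 1 muscle miRNA was at 0 in all insulin sera and 1 in all ZDF anti-sclerostin sera.

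In serum, miR-486 was at place 2 and miR-451-5p at place 5 among all miRNAs by mean share of miRNA reads, with 8.03% and 4.6%. miR-144-3p took place 37 at 0.475% and miR-144-5p place 89 at 0.0499%. In bone, miR-451-5p was at place 40 with 0.515%, miR-486 at 45 with 0.406%, miR-144-3p at 95 with 0.0630% and miR-144-5p at 99 with 0.0597%. The 2 miR-144 strands took the last places among the members in both tissues, and miR-451-5p and miR-486 changed order.

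miR-451-5p varied most among the sera. In the 5 WT placebo rats its levels were 25369, 15213, 81944, 28617 and 157039 CPM. The sera of replicates 3 and 5 lay far above the other 3. In the 5 ZDF placebo rats it was at 29401, 28107, 52514, 20621 and 18428 CPM, all below both high WT sera.
Under PTH, the levels were 29190, 43949, 19899, 23582 and 11795 CPM in WT and 27396, 35795, 99397, 35226 and 7237 CPM in ZDF rats. The third ZDF PTH serum lay above all other PTH sera. Under anti-sclerostin, they were 15572, 12675, 6700.3 and 42218 CPM in WT and 33918, 10098, 9203 and 17396 CPM in ZDF rats.
In the 4 insulin-treated ZDF rats, miR-451-5p was at 114087, 116871, 196908 and 188828 CPM. Each of these sera exceeded every other serum except the WT placebo replicate 5. By mean level the order was ZDF insulin, WT placebo, ZDF PTH, ZDF placebo, WT PTH, WT anti-sclerostin and ZDF anti-sclerostin. No 2 neighbours in this order differed by an exact two-sided permutation test of log2 levels, with p = 0.0556 between ZDF insulin and WT placebo and p of at least 0.349 between the others.

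**Figure D1:**
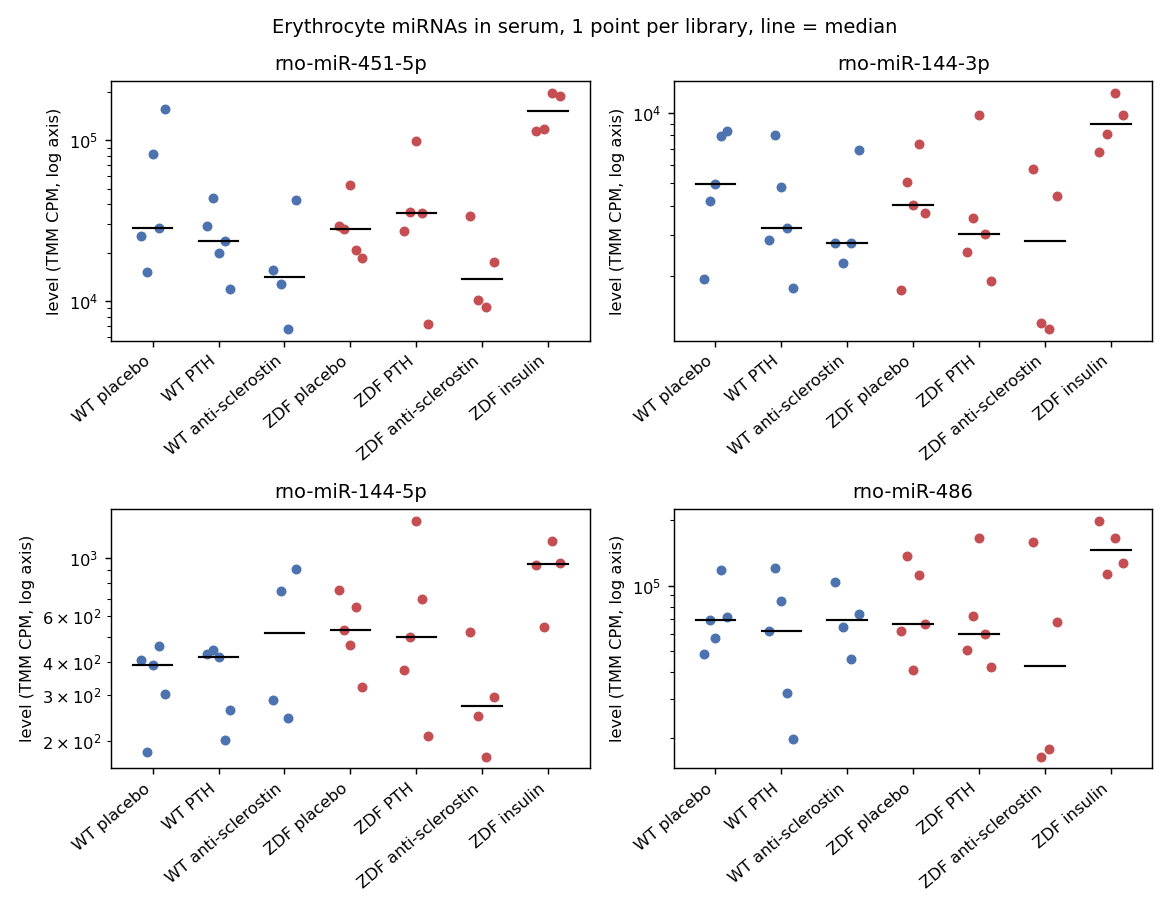
Levels of the 4 erythrocyte miRNAs in 32 sera (y axis, TMM CPM on a log axis; x axis, groups; blue WT, red ZDF; 1 point per library, line the median). The 4 insulin sera lie at 114087 to 196908 CPM for miR-451-5p, above all ZDF placebo sera (18428 to 52514 CPM).

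To ask whether insulin treatment changed the erythrocyte miRNAs in ZDF serum, insulin was compared with placebo. All 4 members were higher under insulin at FDR < 0.2 in edgeR's quasi-likelihood test, where 26.5% of the 151 miRNAs tested were called. Of those 40 called miRNAs, 17 were higher and 23 lower. miR-451-5p rose by a log2 fold change of 2.33 (SE 0.32, FDR = 0.000315), and its groups did not overlap. The exact permutation p was 0.00794, the smallest that 4 against 5 rats allows, and 0.190 when adjusted over 60 such tests.
miR-144-3p, from the same transcript, was at 6773, 8092, 12189 and 9833 CPM under insulin and at 1736, 5071, 4033, 7358 and 3700.0 CPM under placebo. The highest placebo serum lay within the insulin range, and the log2 fold change was 1.05 (SE 0.33, FDR = 0.0646). miR-144-5p was at 941, 544, 1165.5 and 961 CPM under insulin and at 757, 530.1, 467, 652 and 322 CPM under placebo, with overlap and a log2 fold change of 0.71 (SE 0.32, FDR = 0.165).
miR-486 was at 198977, 113258, 164869 and 127047 CPM under insulin and at 62071, 137285, 40716, 112036 and 66761 CPM under placebo. One placebo serum reached into the insulin range, and the log2 fold change was 0.85 (SE 0.32, FDR = 0.12). The median log2 fold change was 0.95 for the members and -0.10 for all miRNAs in the fit. Scaling to all reads of the library moved the median of all miRNAs to -0.37, and scaling to the extraction controls moved it to 0.72.
The call of miR-451-5p was kept in each alternative processing tried. Those of the other 3 members were lost when all serum groups shared 1 fit, with FDR of 0.248 for miR-144-3p, 0.393 for miR-144-5p and 0.419 for miR-486. All 3 were also lost on library reads (FDR of 0.296, 0.546 and 0.344 in that order). Without TMM, the calls of miR-144-5p (FDR = 0.402) and miR-486 (FDR = 0.215) were lost, and with at least 1 read that of miR-144-5p (FDR = 0.264). The call of miR-486 was also lost without ZDF placebo replicate 1 or insulin replicate 1 (FDR of 0.218 and 0.268), and that of miR-144-5p without ZDF placebo replicate 2 or 5 or insulin replicate 1, 3 or 4 (FDR of 0.201 to 0.349).

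Of the 8 other red cell miRNAs, 2 were higher under insulin and none lower: miR-25-3p by 1.25 (SE 0.28, FDR = 0.0275) and miR-93-5p by 0.85 (SE 0.25, FDR = 0.0646), both from the miR-106b-25 cluster. A share of 2 in 8 is near the 26.5% called over all miRNAs in either direction. Over all 151 miRNAs tested, however, only 17 were called higher and 23 lower. Their list made up 22.5% to 30.6% of miRNA reads under insulin and 19.5% to 24.1% under placebo. Of 4 leukocyte miRNAs tested, 1 was lower, miR-150-5p, a lymphocyte miRNA, by -1.27 on the log2 scale (SE 0.40, FDR = 0.0646), and that list made up 1.65% to 2.18% against 2.18% to 3.61%. The liver miRNA miR-122-5p was also lower, by -1.37 (SE 0.58, FDR = 0.160), while none of 4 platelet miRNAs, none of 3 osteoblast and stroma miRNAs and not the 1 muscle miRNA tested was called. The part of these cells in the result was not tested.

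Against WT placebo, 3 members were higher in insulin-treated ZDF rats, where 19.5% of 154 miRNAs were called. Genotype and treatment differ together in this comparison and cannot be told apart. The log2 fold change was 1.23 for miR-451-5p (SE 0.54, FDR = 0.177), 1.35 for miR-144-5p (SE 0.40, FDR = 0.0595) and 1.07 for miR-486 (SE 0.36, FDR = 0.0748). miR-144-3p gave 0.71 (SE 0.38, FDR = 0.302). The call of miR-451-5p was lost without WT placebo replicate 2 or 4 or insulin replicate 3 or 4 (FDR of 0.245, 0.268, 0.356 and 0.292), and without WT placebo replicate 5 its log2 fold change was 1.97. On library reads or extraction controls none of the 3 calls was kept, and that of miR-486 was also lost with all groups in 1 fit (FDR = 0.244). On library reads, 121 of 154 miRNAs were called, all lower, with a median log2 fold change of -1.21. The members then gave 0.30 (miR-451-5p), 0.27 (miR-144-5p) and -0.09 (miR-486). On extraction controls, 6 of 139 miRNAs were called, with a median of -0.16. Markers of other cells were lower in the same comparison, namely 2 of 3 osteoblast and stroma miRNAs (miR-199a-5p by -1.36 and miR-214-3p by -1.25), the 1 muscle miRNA tested (miR-133a-3p by -1.85) and 1 of 4 leukocyte miRNAs (miR-150-5p by -1.43). Of the 4 miRNAs of the platelet list, 1 was lower (miR-199a-3p by -2.52). The paper, however, found miR-199a-3p enriched in cells derived from mesenchymal stem cells, osteoblasts among them. Of the 8 other red cell miRNAs, 2 were higher. The part of these cells in the result was not tested.
Against ZDF PTH, with 30.3% of 66 miRNAs called, miR-451-5p rose by 1.94 (FDR = 0.0612), miR-144-3p by 1.19 (FDR = 0.0934) and miR-486 by 1.00 (FDR = 0.177), and miR-144-5p did not pass the filter on mean CPM. The call of miR-486 was lost without ZDF PTH replicate 1, 2 or 4 or insulin replicate 2 or 3 (FDR of 0.257 to 0.489), without TMM (FDR = 0.254), with no independent filtering (FDR = 0.233), with all groups in 1 fit (FDR = 0.396) and on library reads (FDR = 0.492). That of miR-144-3p was lost with all groups in 1 fit (FDR = 0.243) and on library reads (FDR = 0.324), and without insulin replicate 3 or 4 it fell under the filter on mean CPM. Against ZDF anti-sclerostin, with 29.1% of 141 called, miR-451-5p rose by 3.03 (FDR = 0.00767), miR-144-3p by 1.43 (FDR = 0.156) and miR-144-5p by 1.51 (FDR = 0.0942), while miR-486 gave 1.09 (FDR = 0.324). Without insulin replicate 4 the call of miR-144-3p was lost (FDR = 0.262), without insulin replicate 3 miR-144-5p fell under the filter, and on library reads miR-144-5p lost its call (FDR = 0.236). miR-486 gained a call without ZDF anti-sclerostin replicate 1 (2.13, FDR = 0.0465), on library reads (1.42), with at least 1 read (1.29) and with all groups in 1 fit (1.2). These comparisons share the 4 insulin sera and are not independent. Against PTH and anti-sclerostin, the treatment cannot be told apart from the experiment the rats came from.

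Dividing miR-451-5p reads by those of miR-23a-3p needs no scaling between libraries. It was 11.3, 9.08, 12.1 and 13.8 under insulin and 2.30, 1.66, 2.67, 1.46 and 0.712 in ZDF placebo sera. The groups did not overlap, with a difference of 2.84 on the log2 scale (exact permutation p = 0.00794, adjusted p = 0.0873 over 11 serum comparisons). Of the other 28 sera, 3 were at 9.08 or more, WT placebo replicates 3 and 5 at 9.45 and 9.83 and ZDF PTH replicate 3 at 19.5. No serum comparison reached an adjusted p under 0.05. miR-23a-3p itself differed by -0.47 (SE 0.27, FDR = 0.272) between insulin and placebo. Hemolysis was not measured otherwise, and its part in the result was not tested.

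**Figure D2:**
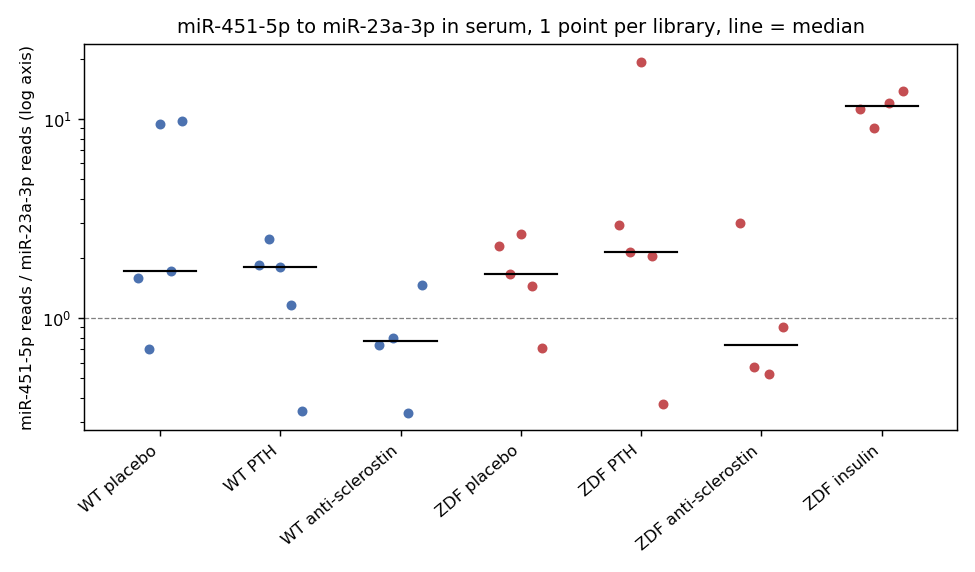
miR-451-5p reads divided by miR-23a-3p reads in 32 sera (y axis, log axis; x axis, groups; blue WT, red ZDF; 1 point per library, line the median, dashed line equal reads). The insulin sera lie at 9.08 to 13.8, and 3 other sera lie as high.

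Per read of the 3 extraction controls, added in equal amount to each serum, the insulin and ZDF placebo groups overlapped for no member. The log2 differences were 3.32 for miR-451-5p (exact permutation p = 0.0159), 2.08 for miR-144-3p (exact permutation p = 0.0238), 1.62 for miR-144-5p (exact permutation p = 0.0159) and 1.84 for miR-486 (exact permutation p = 0.00794), each with an adjusted p of 0.180 over 44 tests. The control reads themselves were lower under insulin by -1.12 on the log2 scale (exact permutation p = 0.00794), so every miRNA is moved upwards on this scale.

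Genotype was compared under placebo. None of the members was called between ZDF and WT sera, where 6.10% of 164 miRNAs were called. miR-451-5p gave a log2 fold change of -1.18 (SE 0.54, FDR = 0.384), and miR-144-5p 0.55, miR-144-3p -0.40 and miR-486 0.14. Without WT placebo replicate 5, miR-451-5p gave -0.43, and without WT placebo replicate 2 it was called (-1.33, FDR = 0.171). Between ZDF and WT rats under PTH, 0% of 158 miRNAs were called by edgeR (5 at an unadjusted p under 0.05, and 0 by DESeq2), and under anti-sclerostin 0.855% of 117, with no member among them.

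PTH gave no call in serum, with 0% of 170 miRNAs in WT and 0% of 154 in ZDF rats (edgeR FDR < 0.2). At an unadjusted p under 0.05 there were 2 and 4 miRNAs, and DESeq2 called 0 in both. miR-451-5p gave -1.42 in WT (SE 0.63, FDR = 0.992) and 0.47 in ZDF rats (SE 0.48, FDR = 0.993). The interaction of PTH and genotype for miR-451-5p was 1.84 (SE 0.86, FDR = 0.922), and 0% of 182 miRNAs were called by edgeR (8 at an unadjusted p under 0.05, and 0 by DESeq2). Without WT placebo replicate 5, miR-451-5p gave -0.52 in WT rats and an interaction of 1.07, and without ZDF PTH replicate 3 it gave -0.02 in ZDF rats. Without WT placebo replicate 2, it was called in WT rats (-1.58, FDR = 0.171) and in the interaction (2.07, FDR = 0.181). The interaction was also called without ZDF PTH replicate 5 (2.08, FDR = 0.144).

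Anti-sclerostin gave 1 call among the members. In WT rats miR-451-5p was lower than under placebo by -1.99 on the log2 scale (SE 0.66, FDR = 0.198), where 3.70% of 108 miRNAs were called. The groups overlapped, and an exact permutation test of log2 levels gave p = 0.135. Without the WT placebo replicate 5 the log2 fold change was -1.16 (FDR = 0.547), and without the WT anti-sclerostin replicate 1 it was -1.84 (FDR = 0.590).
In ZDF rats, where 5.38% of 130 miRNAs were called, no member was called and the log2 fold changes ran from -0.81 for miR-144-5p to -0.33 for miR-486. Without ZDF anti-sclerostin replicate 1, miR-451-5p (-1.21, FDR = 0.123) and miR-144-5p (-1.12, FDR = 0.158) were called, and over all left-out libraries miR-486 ranged from -1.23 to -0.0223. The interaction with genotype was 1.28 for miR-451-5p (SE 0.87, FDR = 0.822), with 0% of 189 miRNAs called by edgeR (4 at an unadjusted p under 0.05, and 0 by DESeq2). It was 0.46 without ZDF anti-sclerostin replicate 1, 0.54 without WT placebo replicate 5, 0.84 without WT anti-sclerostin replicate 2 and 0.76 without WT anti-sclerostin replicate 3.

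**Figure D3:**
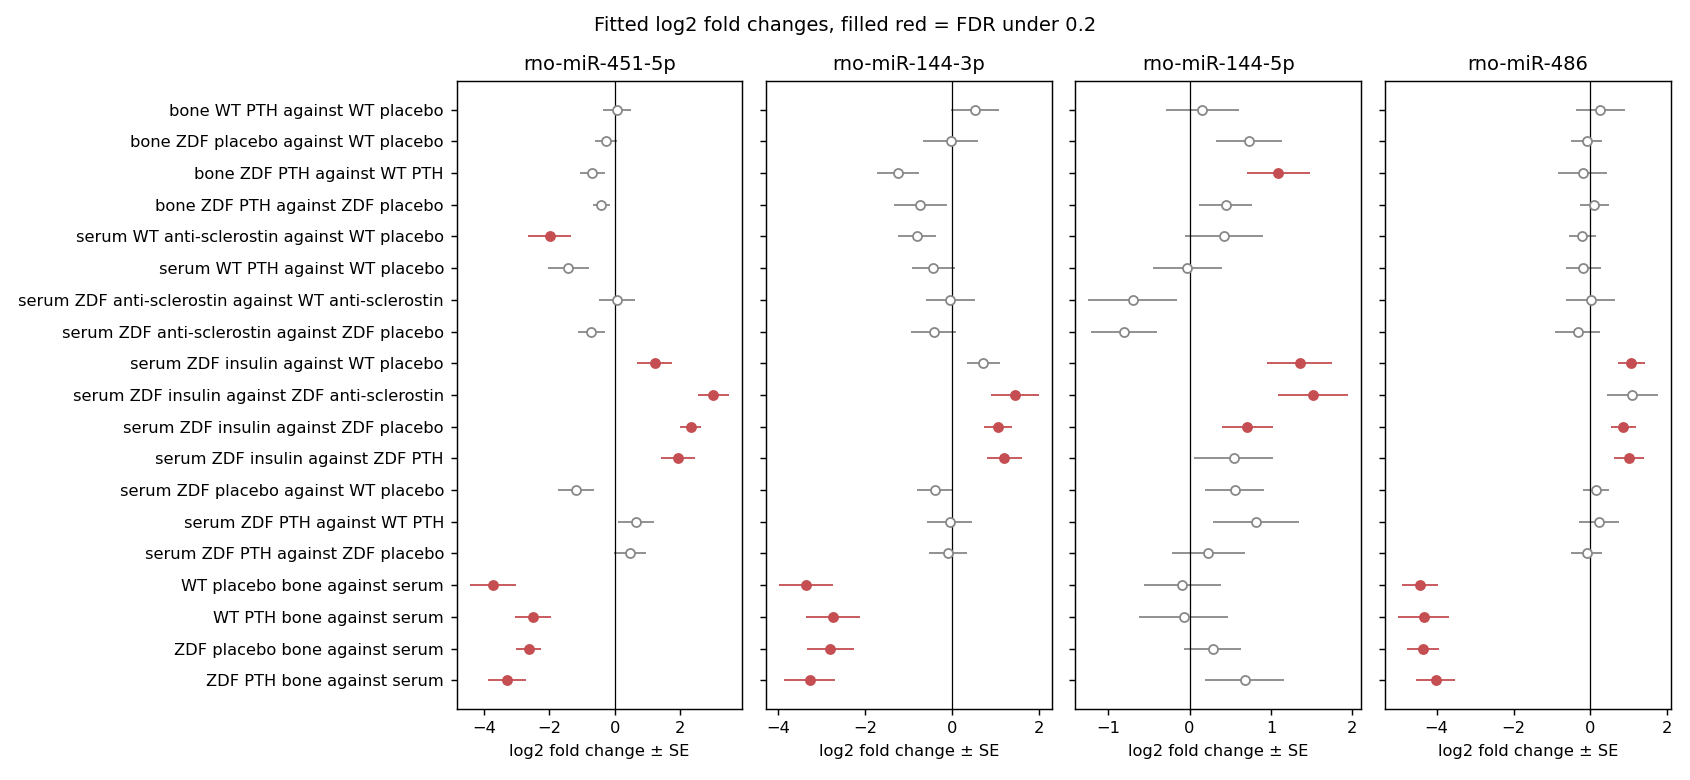
Fitted log2 fold changes of the 4 members with their SE (x axis, scales differ between panels) in 19 comparisons of 2 groups (y axis); filled red points passed FDR < 0.2. All 4 members are filled for insulin against ZDF placebo, and miR-144-5p is not filled in any comparison of bone with serum.

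In bone, fewer cells of a type and less RNA per cell cannot be told apart. miR-451-5p was at 6879, 5139, 7948 and 2798 CPM in WT placebo, 4887, 4126, 4835 and 5661 CPM in ZDF placebo, 6526, 3012, 9053 and 4941 CPM in WT PTH, and 3775, 2391, 3981 and 4227 CPM in ZDF PTH bones. Each of the 4 groups overlapped with every other. By mean level the order was WT PTH, WT placebo, ZDF placebo and ZDF PTH, and no 2 neighbours in it differed, with the smallest exact permutation p = 0.0571 between ZDF placebo and ZDF PTH.
miR-486 ranged from 1591 to 10161 CPM over the 16 bones, and all 4 groups overlapped. miR-144-3p ranged from 150.4 to 1254 CPM and miR-144-5p from 175 to 1257 CPM.

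**Figure D4:**
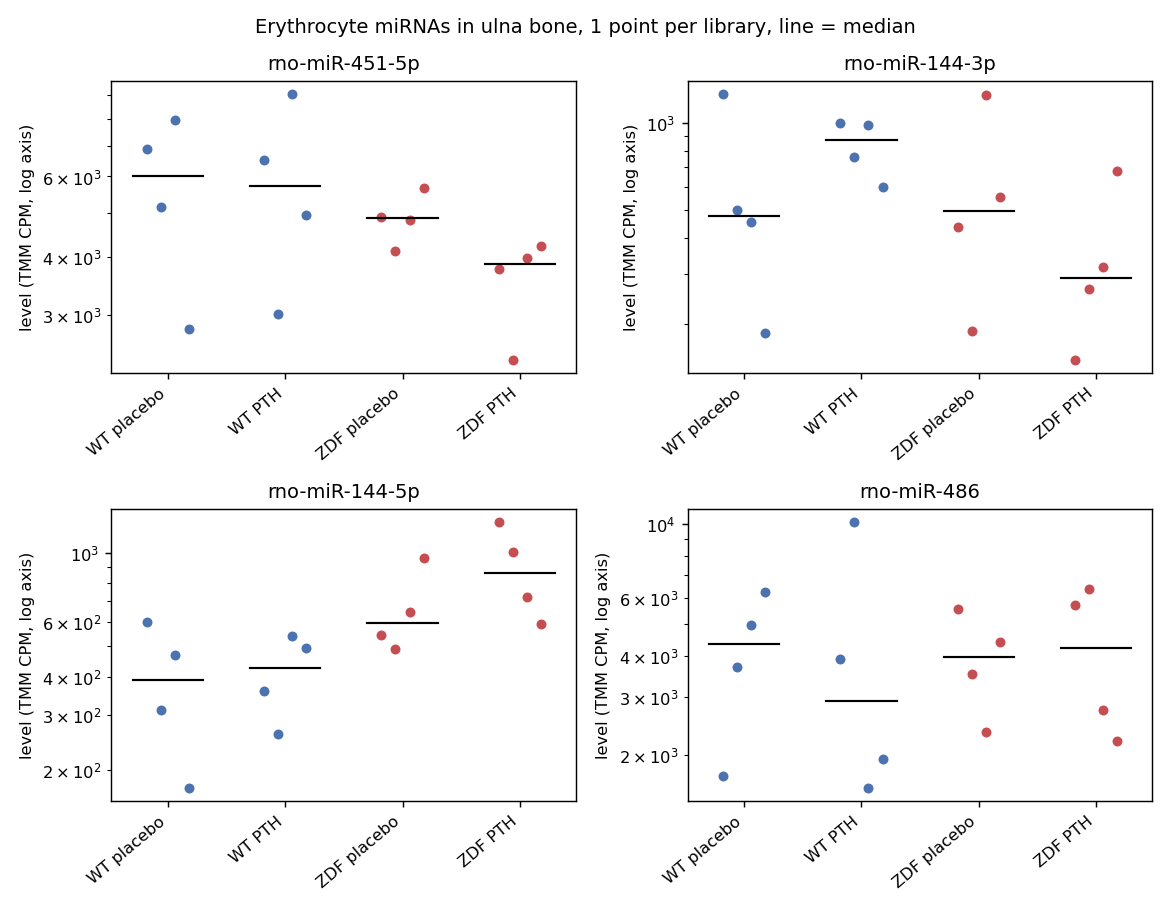
Levels of the 4 erythrocyte miRNAs in 16 ulna bones (y axis, TMM CPM on a log axis; x axis, groups; blue WT, red ZDF; 1 point per library, line the median). miR-144-5p is at 592 to 1257 CPM in ZDF PTH bones and at 262 to 541 CPM in WT PTH bones.

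None of the members was called between ZDF and WT placebo bones (17.0% of 135 miRNAs called), nor between PTH and placebo in WT (16.8% of 179) or ZDF bones (0% of 215, with 13 at an unadjusted p under 0.05 and 1 called by DESeq2). Between ZDF and WT bones under PTH, where 7.89% of 114 miRNAs were called, miR-144-5p was higher. It was at 1257, 1006, 722 and 592 CPM in ZDF and at 359, 262, 541 and 494 CPM in WT bones, without overlap, and the log2 fold change was 1.09 (SE 0.39, FDR = 0.198). This call was lost without ZDF PTH replicate 1 (0.86, FDR = 0.546), replicate 2 (0.98, FDR = 0.620) or replicate 3 (1.11, FDR = 0.420), and without WT PTH replicate 1 or 3 miR-144-5p fell under the filter on mean CPM. It was also lost without TMM (FDR = 0.407), with at least 1 read (FDR = 0.311) and with no independent filtering (FDR = 0.286). In WT PTH replicates 1 and 2, miR-144-5p rested on 18 and 10 reads. The opposite strand, miR-144-3p, gave -1.23 (SE 0.48, FDR = 0.279), and it gained a call with DESeq2 (adjusted p = 0.190) and without WT PTH replicate 2 (FDR = 0.190) or 4 (FDR = 0.152) or ZDF PTH replicate 4 (-1.83, FDR = 0.0454). The striated muscle list made up 11.6% to 17.7% of miRNA reads in these ZDF bones and 5.35% to 7.17% in the WT bones, and its part in the result was not tested. For the interaction of PTH and genotype in bone, 1.35% of 74 miRNAs were called and none was a member.

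The 2 strands of miR-144 come from 1 hairpin, so their ratio needs no scaling between libraries. It was chosen after the values were seen and is given as a description, with no test. miR-144-5p to miR-144-3p was 0.0368 to 0.439 in the 32 sera (median 0.106) and 0.356 to 8.29 in the 16 bones (median 0.903), and miR-144-5p was the more abundant strand in 0 of 32 sera and 7 of 16 bones. Bone and serum did not overlap in any of the 4 groups that both tissues share. The log2 differences were 3.40 in WT placebo, 3.29 in ZDF placebo, 2.39 in WT PTH and 4.20 in ZDF PTH rats.
Within bone, the ratio was 8.29, 3.77, 2.27 and 0.869 in ZDF PTH and 0.366, 0.356, 0.551 and 0.83 in WT PTH rats. The ZDF values all lay above the WT values, with a log2 difference of 2.50. In ZDF PTH replicate 1 the ratio rested on 493 against 59 reads. In WT PTH replicates 1 and 2 it rested on fewer, 18 against 50 and 10 against 29.

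**Figure D5:**
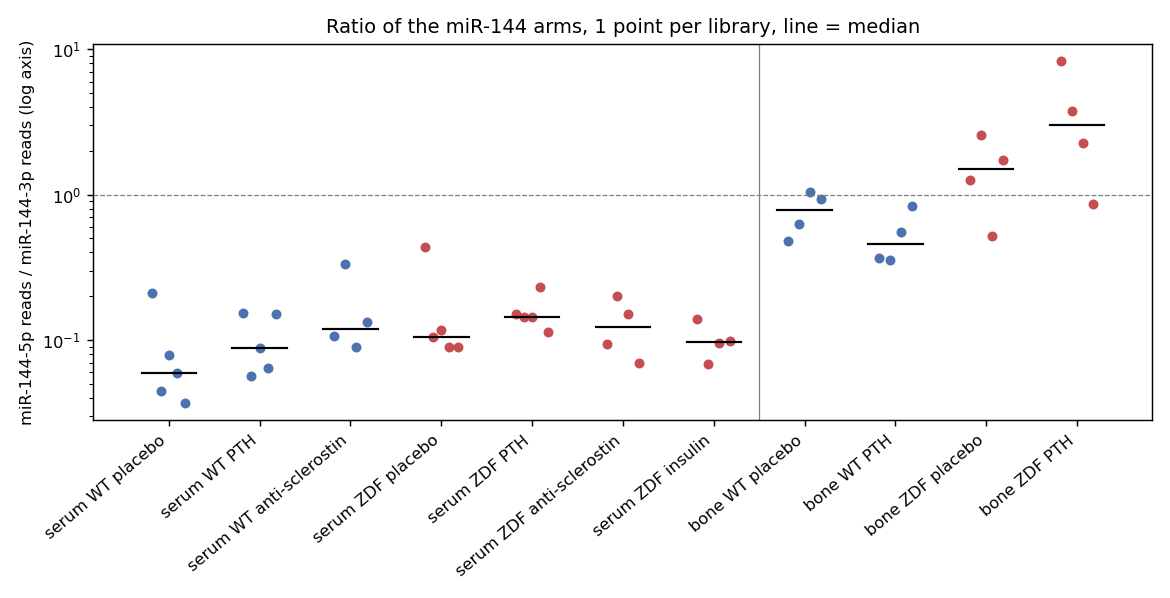
Ratio of miR-144-5p to miR-144-3p reads in 32 sera and 16 bones (y axis, log axis; x axis, groups, with serum left of the grey line; blue WT, red ZDF; 1 point per library, line the median, dashed line equal reads). The sera lie at 0.0368 to 0.439 and the bones at 0.356 to 8.29.

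Fitted against serum, 3 members were lower in bone in all 4 groups. In WT placebo rats the log2 fold change was -3.74 for miR-451-5p (SE 0.70), -3.35 for miR-144-3p (SE 0.62) and -4.43 for miR-486 (SE 0.46), against -0.09 for miR-144-5p (SE 0.48, FDR = 0.872). In ZDF placebo rats the values were -2.64, -2.80, -4.36 and 0.28, in WT PTH rats -2.50, -2.73, -4.34 and -0.07, and in ZDF PTH rats -3.29, -3.26, -4.03 and 0.68. Most miRNAs were called in these comparisons, as higher or lower. The shares were 80.6% of 222 in WT placebo and 86.1% of 202 in ZDF placebo rats. They were 79.9% of 184 in WT PTH and 81.6% of 190 in ZDF PTH rats. By this count in either direction, 3 of 4 members called is near the background. All 8 other red cell miRNAs were also called lower in bone in each group. The calls were not all lower, since fitted changes centred on 0.10, 0.21, -0.07 and 0.42 (medians, groups in that order). The share called lower was not set beside the members or the red cell list. Scaled to all reads of the library, the median of all miRNAs moved to 2.57 in WT placebo and 3.10 in ZDF placebo rats, and miR-451-5p was then at 0.19 in ZDF placebo rats. On that scale miR-144-3p was no longer called in ZDF placebo (-0.35), WT PTH (-0.75) and ZDF PTH rats (-0.65), nor miR-451-5p in any of these 3 groups.

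The members varied together in serum. Over the 28 sera without insulin, log2 levels scaled to the reads of all other miRNAs correlated with Pearson's r = 0.742 for miR-451-5p and miR-144-3p (rho = 0.696), r = 0.831 for miR-144-3p and miR-486 (rho = 0.826), r = 0.574 for miR-451-5p and miR-486 (rho = 0.50) and r = 0.566 for the 2 miR-144 strands (rho = 0.527). The permutation p-values, adjusted over 18 correlations, were at most 0.00274 for r and 0.0100 for rho in these pairs. Sera, and likewise bones, were permuted without regard to group, so differences between groups also enter these correlations and their p-values. Without the 2 sera farthest from the median, r was 0.729, 0.771, 0.605 and 0.437.
Over the 16 bones, miR-451-5p correlated with miR-144-3p (r = 0.716, rho = 0.732, permutation p adjusted 0.00274 for r and 0.00295 for rho). The correlation of miR-451-5p with miR-486 was negative (r = -0.579, rho = -0.621, permutation p adjusted 0.0243 and 0.0156), and without the 2 farthest bones it was -0.513. The 2 miR-144 strands gave r = 0.128 and rho = 0.0353 (permutation p adjusted 0.642 and 0.900).

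The miRNAs whose levels were most like miR-451-5p are given as a description, with no test. Over the 32 sera, out of 197 miRNAs, they were miR-25-3p (Spearman's rho 0.808), miR-144-3p (0.768), miR-26b-5p (0.758), miR-93-5p (0.749) and miR-106b-3p (0.736). miR-144-5p followed at place 12 and miR-486 at place 15. Ahead of miR-486 were also the muscle miRNAs miR-208b-3p (place 8, 0 to 51 reads) and miR-499-5p (place 14, 0 to 35 reads). Further muscle miRNAs, miR-1-3p, miR-133a-3p and miR-133b-3p, were at places 37, 55 and 74. The remaining miRNAs of the red cell list were at places 7 (miR-16-5p), 57 (miR-106b-5p), 76 (miR-185-5p), 81 (miR-15b-5p), 112 (miR-363-3p) and 149 (miR-92a-3p, rho -0.253). Over the 16 bones, out of 242 miRNAs, they were miR-223-3p (0.900), miR-1949 (0.824), miR-455-5p (0.794), miR-301a-3p (0.782) and miR-34b-5p (0.774), and miR-486 was last, at place 242. miR-223-3p is a miRNA of the myeloid cells. The other leukocyte miRNAs of the list were at places 15 (miR-142-3p), 55 (miR-142-5p), 130 (miR-155-5p) and 200 (miR-150-5p, rho -0.15). Red cell miRNAs were at places 34 (miR-363-3p), 63 (miR-185-5p), 64 (miR-15b-5p), 70 (miR-16-5p), 87 (miR-106b-5p) and 100 (miR-93-5p). From the same list, miR-25-3p (rho -0.126) and miR-92a-3p (rho -0.291) were at places 194 and 223. In the bones, miR-486 had a rho of 0.444 with miR-1-3p, 0.409 with miR-206-3p, 0.262 with miR-133a-3p, 0.162 with miR-208b-3p, 0.0912 with miR-133b-3p and -0.279 with miR-499-5p, the 6 muscle miRNAs, and of 0.318 with their sum. In the sera, its rho was 0.416 with miR-208b-3p, 0.317 with miR-133a-3p and 0.266 with miR-499-5p. It was 0.256 with miR-1-3p, 0.202 with miR-133b-3p and -0.129 with miR-206-3p, and 0.254 with the sum.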

How the data were processed

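Small RNA of 48 libraries was counted by the authors with cutadapt, Bowtie and miRDeep2 against the rat genome and miRBase. The deposited counts are whole reads per mature miRNA. Beside them the authors deposited RPM relative to the whole library, used here to obtain library totals, and RPM relative to miRNA reads, not used here. The 3 extraction and 7 other added controls were left out of the miRNA counts. Groups came from the labels; the age, feeding and surgery of the rats came from the study's methods. Replicates were numbered in the order deposited.

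Groups were compared with edgeR 4.0.16 in R 4.3.3 (quasi-likelihood test, legacy = TRUE, robust = FALSE, TMM, filterByExpr, only the groups compared). The minimum mean CPM was then the one of 50 quantiles, up to 0.95, that gave most calls. FDR is the Benjamini-Hochberg adjusted p over all miRNAs kept, with calls at FDR < 0.2, the threshold of the study's methods. SE values are the log2 fold change divided by the square root of F. Levels were also compared by exact two-sided permutation of log2(CPM + 1), and the ratio to miR-23a-3p likewise with 0.5 added to both reads. Correlations used 100000 permutations (Python 3.11.15, numpy 2.4.6). The fit was tested on simulated data. Alternatives were DESeq2 1.42.0, other scalings and filters, and leaving out each library. Named miRNAs were the members, list members past FDR < 0.2, miR-23a-3p and the 5 most correlated with miR-451-5p in each tissue. The 6 muscle miRNAs were also set beside miR-486, which was not planned. Nor was it planned to name red cell, leukocyte and muscle miRNAs at their places of likeness to miR-451-5p. The members and lists were chosen with earlier results of these data known. Intervals and p-values cover the spread between rats, and counts without molecular identifiers are not independent molecules. In 82 pairs of libraries of the same group, none agreed within counting noise.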

Additional observations from a re-analysis of the deposited data

Results flagged for a closer look

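Each measure was examined in each group of 4 or 5 libraries, 73 sets of values in all. In 6 sets, from 3 serum groups, 1 library lay far from the others by Dixon's criterion at 95%, where chance gives about 1 in 20. miR-144-3p was at 6940 CPM in WT anti-sclerostin serum replicate 4, against 2271 to 2771 CPM in the other 3. In ZDF PTH serum replicate 3, miR-144-3p was at 9768 CPM (others 1897 to 3528) and miR-486 at 165700 CPM (others 42123 to 72815), and this serum also had the fewest extraction control reads of all, 51220. The log2 ratio of miR-144-5p to miR-144-3p was -1.19 in ZDF placebo serum replicate 1, against -3.49 to -3.10 in the others. miR-451-5p reads divided by miR-144-3p reads were, in log2, 1.28 in WT anti-sclerostin serum replicate 3 (others 2.48 to 2.60) and 1.93 in ZDF PTH serum replicate 5 (others 3.34 to 3.55).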

How the results depend on the processing

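No paired analysis was possible because the labels give no replicate numbers shared between groups. All values here are log2 fold changes or log2 differences. In the insulin against ZDF placebo comparison, miR-451-5p kept its call and direction in all 21 alternatives (1.98 to 2.85). With all reads of the library as scale, calls of insulin against ZDF placebo were lost for miR-144-3p (0.67), miR-144-5p (0.47) and miR-486 (0.63), without TMM for miR-144-5p (0.36) and miR-486 (0.52), with all groups in 1 fit for miR-144-3p (1.19), miR-144-5p (0.84) and miR-486 (0.96), with every miRNA of at least 1 read for miR-144-5p (0.71), and at FDR < 0.05 for miR-144-3p (1.05), miR-144-5p (0.71) and miR-486 (0.85). For insulin against WT placebo, miR-451-5p lost its call without TMM (0.89), on library reads (0.30), on extraction controls (0.65), with all groups in 1 fit (1.22), with robust = TRUE (1.23) and at FDR < 0.05 (1.23), and for insulin against ZDF PTH on extraction controls (0.43) and at FDR < 0.05 (1.94). For WT anti-sclerostin against placebo it lost its call with DESeq2's size factors (-1.87), and with no independent filtering, robust = TRUE and FDR < 0.05 (-1.99 in each). It gained a call between ZDF and WT placebo sera on library reads (-1.68), extraction controls (-2.20) and with at least 1 read (-1.24), for WT PTH on library reads (-1.57), with at least 1 read (-1.32) and with all groups in 1 fit (-1.34), for ZDF PTH on extraction controls (2.43), for the interaction with PTH on extraction controls (4.46) and with at least 1 read (1.76), and for that with anti-sclerostin on extraction controls (3.09). On library reads, 107 of 157 miRNAs were called between ZDF and WT placebo sera, 101 of them lower (median of all miRNAs -0.87). On extraction controls, 49 of 113 were called there, 46 of them lower, and with at least 1 read 37 of 370. For ZDF PTH on extraction controls, 88 of 154 were called, all higher (median 1.42). For WT PTH, 1 of 16 was called on library reads, 3 of 278 with at least 1 read and 2 of 9 in 1 fit. Directions turned on library reads for miR-486 between ZDF and WT placebo sera (-0.72), insulin and WT placebo (-0.0903), WT PTH and placebo bones (-1.96) and ZDF and WT PTH bones (1.60), and in bone against serum for miR-144-5p in WT placebo (2.40) and WT PTH (1.95) and miR-451-5p in ZDF placebo (0.19), while miR-451-5p lost its call in WT PTH (-0.39) and ZDF PTH (-0.55) and miR-144-3p in ZDF placebo (-0.35), WT PTH (-0.75) and ZDF PTH (-0.65). They turned on extraction controls for ZDF PTH against placebo (miR-144-3p 2.08, miR-486 2.14) and insulin against ZDF PTH (miR-144-3p -0.26, miR-486 -0.33). Values of miR-451-5p that were not called moved on library reads between ZDF and WT anti-sclerostin sera (-0.35, and -0.11 with at least 1 read), WT PTH and placebo bones (-0.97), ZDF and WT PTH bones (0.19) and in the bone interaction (0.69). The cause of these changes was not tested.

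Leaving out 1 library at a time, miR-451-5p ranged from -1.38 to -0.43 between ZDF and WT placebo, from -1.63 to -0.52 for WT PTH, from -0.0201 to 0.78 for ZDF PTH, from -2.53 to -1.16 for WT anti-sclerostin, from -1.21 to -0.40 for ZDF anti-sclerostin, from 1.02 to 1.97 for insulin against WT placebo, from -0.42 to 0.63 between ZDF and WT anti-sclerostin, from -0.16 to 0.30 for WT PTH in bone, from -0.89 to -0.46 between ZDF and WT PTH bones, from 1.07 to 2.08 for the interaction with PTH in serum and from 0.46 to 1.82 for that with anti-sclerostin. For insulin against ZDF placebo miR-144-5p ranged from 0.63 to 0.92 and miR-486 from 0.68 to 1.10. miR-451-5p over miR-23a-3p ranged from -0.11 to 1.32 for ZDF PTH, from -2.44 to -1.49 for WT anti-sclerostin, from 1.52 to 2.47 for insulin against WT placebo, from 1.52 to 2.95 against ZDF PTH, from 3.3 to 4.14 against ZDF anti-sclerostin and from -0.18 to 0.71 between ZDF and WT anti-sclerostin. Of 892 such fits, 763 kept direction and call, 27 lost and 18 gained a call, and in 84 a value not called in either fit changed sign. For insulin against ZDF placebo, 40 miRNAs were called, against 59 without TMM, 13 with all groups in 1 fit, 3 at FDR < 0.05 and 27 on extraction controls (27 higher, 0 lower, against 17 and 23).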
